A study of Rattus norvegicus with 43 samples.

Results

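The question here was whether colon tissue of rats fed wheat differed from that of rats fed maize starch when both grains were given at a low and at a high amylose level. Members were taken by diet label. They were the 29 arrays of the diets LAW, HAW, LAMS and HAM, out of 43 arrays in all. The 14 wheat arrays comprised LAW (n = 6) and HAW (n = 8), and the 15 maize arrays comprised LAMS (n = 7) and HAM (n = 8). The comparison was the mean of the LAW and HAW means minus the mean of the LAMS and HAM means, so that amylose level was balanced between the grains. The animals were Sprague Dawley rats aged 11 weeks, each array held the distal colon RNA of a different rat, and 100 ng of total RNA was labelled. Diets appear in the labels as codes only. Reading them as low-amylose maize starch (LAMS), high-amylose maize starch (HAM, which the series description spells HAMS), low-amylose wheat (LAW) and high-amylose wheat (HAW) follows common knowledge of the study, whose title names a Western diet. The rest of each recipe, the length of feeding and the sex of the animals are not given in the labels, so the grain and whatever else came with it in the food cannot be told apart. The other diets were a control (n = 5) and HAMSB (n = 9), read as butyrylated high-amylose maize starch. Their 14 arrays entered the model only for its estimate of spread. RNA that fell short in quality or amount had not been put on an array.

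Starch that escapes digestion in the small intestine is fermented by bacteria in the large bowel, which yields short-chain fatty acids that colonocytes burn and take up. Amylose-rich starch escapes more than amylose-poor starch. Wheat as a food also carries cell-wall polysaccharides, protein, minerals and plant phenolics that purified maize starch lacks; whether the wheat here was wholemeal or a fraction is not given in the labels. The distal colon absorbs salt and water, is covered by mucus from goblet cells, and lies on layers of connective tissue, muscle, nerves and lymphoid follicles, all of which contribute RNA to a piece of tissue.

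All values are log2 expression values or differences of them, differences are wheat minus maize ± the standard error of the linear model, and diet means carry their SD. An adjusted p is the limma p after Benjamini-Hochberg adjustment over the 10934 genes tested, with 0.05 as the threshold. The term unadjusted p is used for the limma p before that step. Markers of the labelled tissue were present: 25 of 27 tested genes of absorptive colonocytes, 19 of 21 of goblet cells and 21 of 21 of smooth muscle lay above the low-signal floor on every one of the 29 arrays. In bulk tissue, fewer cells of a type and less RNA per cell cannot be told apart.

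Several measures of the arrays moved with the diets. The mean of 14 genes of B cells and germinal centres, called the lymphoid level below, was 6.72 ± 1.33 in LAMS (n = 7), 7.84 ± 1.33 in HAM (n = 8), 6.83 ± 1.43 in LAW (n = 6) and 6.64 ± 1.28 in HAW (n = 8). Wheat minus maize was -0.55 (permutation test, two-sided, p = 0.286, and adjusted over 2 array measures 0.286). The interquartile range of an array's values, its spread, differed by 0.10 (permutation p = 0.113, adjusted 0.226), with HAM lowest at 3.01 ± 0.14. Among the 15 arrays of the capital-prefix name style described next, these differences were -0.37 (permutation p = 0.465) and -0.09 (permutation p = 0.312). The array files carried names of different styles: a lower-case name on 10 wheat and 4 maize arrays, and a capital prefix with a D after the number on 4 wheat and 11 maize arrays. All 8 HAM arrays had the capital-prefix style, against 3 of 8 HAW, 1 of 6 LAW and 3 of 7 LAMS arrays. Within the capital-prefix style LAW is thus 1 array, and within the lower-case style LAMS is the only maize diet. What the styles stand for is not given. Within diets, 4317 genes differed between these name styles, and 5842 followed the lymphoid level. The array of HAW replicate 8 had the lowest spread of the 29, at 2.68, and the lowest array weight, at 0.23. Many results below are therefore also given with the name style as a block, with the lymphoid level as a covariate, or without HAW replicate 8. A value given without these models is not thereby unchanged under them.

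**Figure D1:**
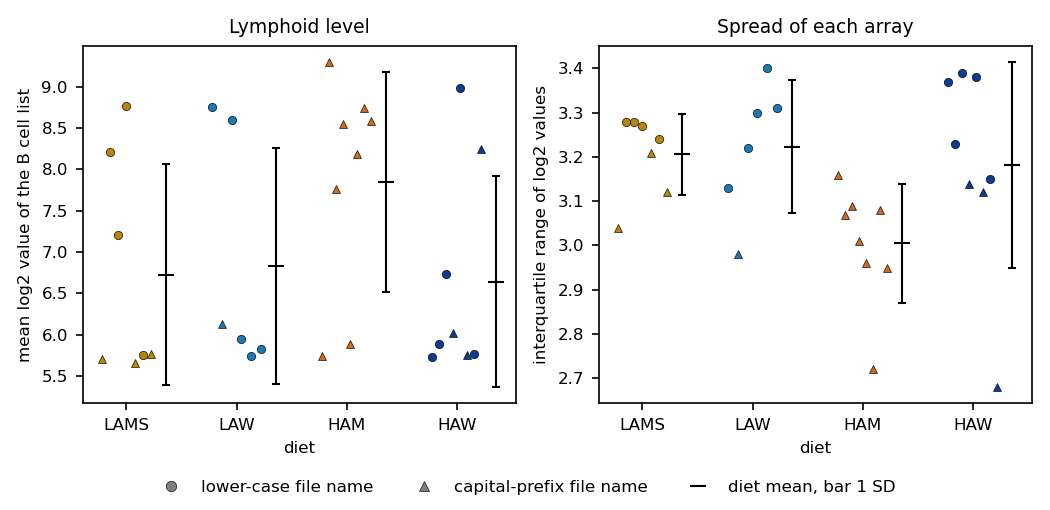
Left, the lymphoid level of each array (mean log2 value of 14 B cell and germinal centre genes); right, the interquartile range of the log2 values of each array, by diet. Points are arrays, circles have lower-case and triangles capital-prefix file names, and bars show the mean and 1 SD; the lymphoid level ranged over about the same values in every diet, but its mean was highest in HAM, and the array spread was lowest in HAM on average.

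No gene passed in wheat minus maize: 0 of 10934 genes (0%) had an adjusted p under 0.05 in limma, and the smallest adjusted p was 0.137. Before adjustment, 1369 genes were higher in wheat at p under 0.05, which is 12.5% of those tested, and 433 were lower, 3.96%. The margin of a gene's 95% confidence interval was 0.18 in the median. Blocking on the name style gave unadjusted counts of 641 higher and 628 lower, and again 0 passed. Leaving out HAW replicate 8 gave 188 genes past the threshold, 168 higher and 20 lower, while leaving out any other single array gave 0 to 2. Limma array weights, which are lower for arrays that scatter more around the fitted means, gave 3086. The weights were estimated from these same values, not from a separate measure of quality. All 3086 had the sign of the unweighted difference, but both fits use the same values, so this is no independent check. With array weights and the name style as a block 1426 passed, and with the lymphoid level added to these 0 passed.

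Of the 12 genes with the smallest p, all but Rpph1 had the same sign in both grain pairs. The average is made from these pairs, so ranking by its p favours genes whose pairs agree. Of the 1802 genes at an unadjusted p under 0.05 in the average, 1549 had the same sign in both pairs, beside 51.1% of all genes. The shared sign of the 12 is therefore no separate evidence that the pairs agree. Clca1, which encodes a protease that goblet cells secrete into mucus, headed the 12. Its level in wheat-fed rats ran from 12.51 to 13.01 with a median of 12.73, and in maize-fed rats from 11.95 to 12.78 with a median of 12.45. The groups overlapped, but all 14 wheat arrays lay above the maize median and 5 lay above every maize array. The difference was 0.34 ± 0.07 (limma, adjusted p = 0.137), with 0.24 ± 0.10 in LAW minus LAMS and 0.45 ± 0.09 in HAW minus HAM. It was 0.30 with the name style as a block and 0.24 with the lymphoid level also in the model. Among arrays of the capital-prefix style alone, where LAW is 1 array, it was 0.30.

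Entpd5, which encodes an endoplasmic reticulum enzyme that aids the folding of glycoproteins, was at 7.97 to 9.29 in wheat (median 8.79) and 7.25 to 9.15 in maize (median 8.37). Of the 14 wheat arrays, 13 were above the maize median. Its difference was 0.52 ± 0.12 (limma, adjusted p = 0.195). Scin, which encodes an actin-severing protein, had the largest difference of the 12, at 0.71 ± 0.17 (adjusted p = 0.195). Its levels ran from 8.34 to 10.27 in wheat (median 9.53) and from 7.50 to 9.61 in maize (median 8.97), and 11 of 14 wheat arrays lay above the maize median. Name style and lymphoid level together in the model brought Scin down to 0.35 and Entpd5 to 0.25.

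A receptor and a signal carrier of contraction and secretion stood among the 12. Chrm3, the M3 muscarinic acetylcholine receptor of smooth muscle and epithelium, was at 6.56 to 7.70 in wheat (median 7.25) and 5.86 to 7.25 in maize (median 6.72). On 7 of the 14 wheat arrays it was higher than on every maize array, and its difference was 0.45 ± 0.11. Gna14, a G protein subunit of the Gq family through which such receptors signal, differed by 0.47 ± 0.11. For Gna14 the name styles themselves differed within diets (capital minus lower -0.52, limma adjusted p = 0.00135), and with the style as a block its difference was 0.26. Chrm3 kept 0.45 with that block.

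The other genes of the 12 were of mixed roles. Polr3c, a subunit of RNA polymerase III, was 0.35 ± 0.08 higher, with 7 of 14 wheat arrays above every maize array. Tox, a nuclear factor of developing T cells, was 0.34 ± 0.09 higher, 0.36 in the low-amylose and 0.33 in the high-amylose pair. The name styles differed for Tox within diets (capital minus lower -0.30, limma adjusted p = 0.0118). Its difference was 0.21 with the style as a block, 0.16 with the lymphoid level added and 0.05 within the lower-case style. Genes with lower values in wheat were Ddx25, an RNA helicase known from testis, at -0.28 ± 0.06; Scn4a, the sodium channel of skeletal muscle, at -0.31 ± 0.08; RT1-M6-2, a nonclassical MHC class I gene, at -0.38 ± 0.09; and H2bc1, a testis histone, at -0.39 ± 0.10. Ddx25 lay near the low-signal floor of 4.75, with medians of 4.68 in wheat and 4.88 in maize. So did Scn4a, with medians of 4.65 in wheat and 5.05 in maize. H2bc1 also differed between the styles (capital minus lower 0.36, adjusted p = 0.00504), and the block brought it to -0.20. With the lymphoid level as a covariate Chrm3 (0.35), H2bc1 (-0.44) and Hist1h2af, also a histone gene (-0.59), passed the threshold, each with an adjusted p of 0.0487. Without HAW replicate 8 all 12 genes passed, with adjusted p between 0.0388 and 0.0445.

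**Figure D2:**
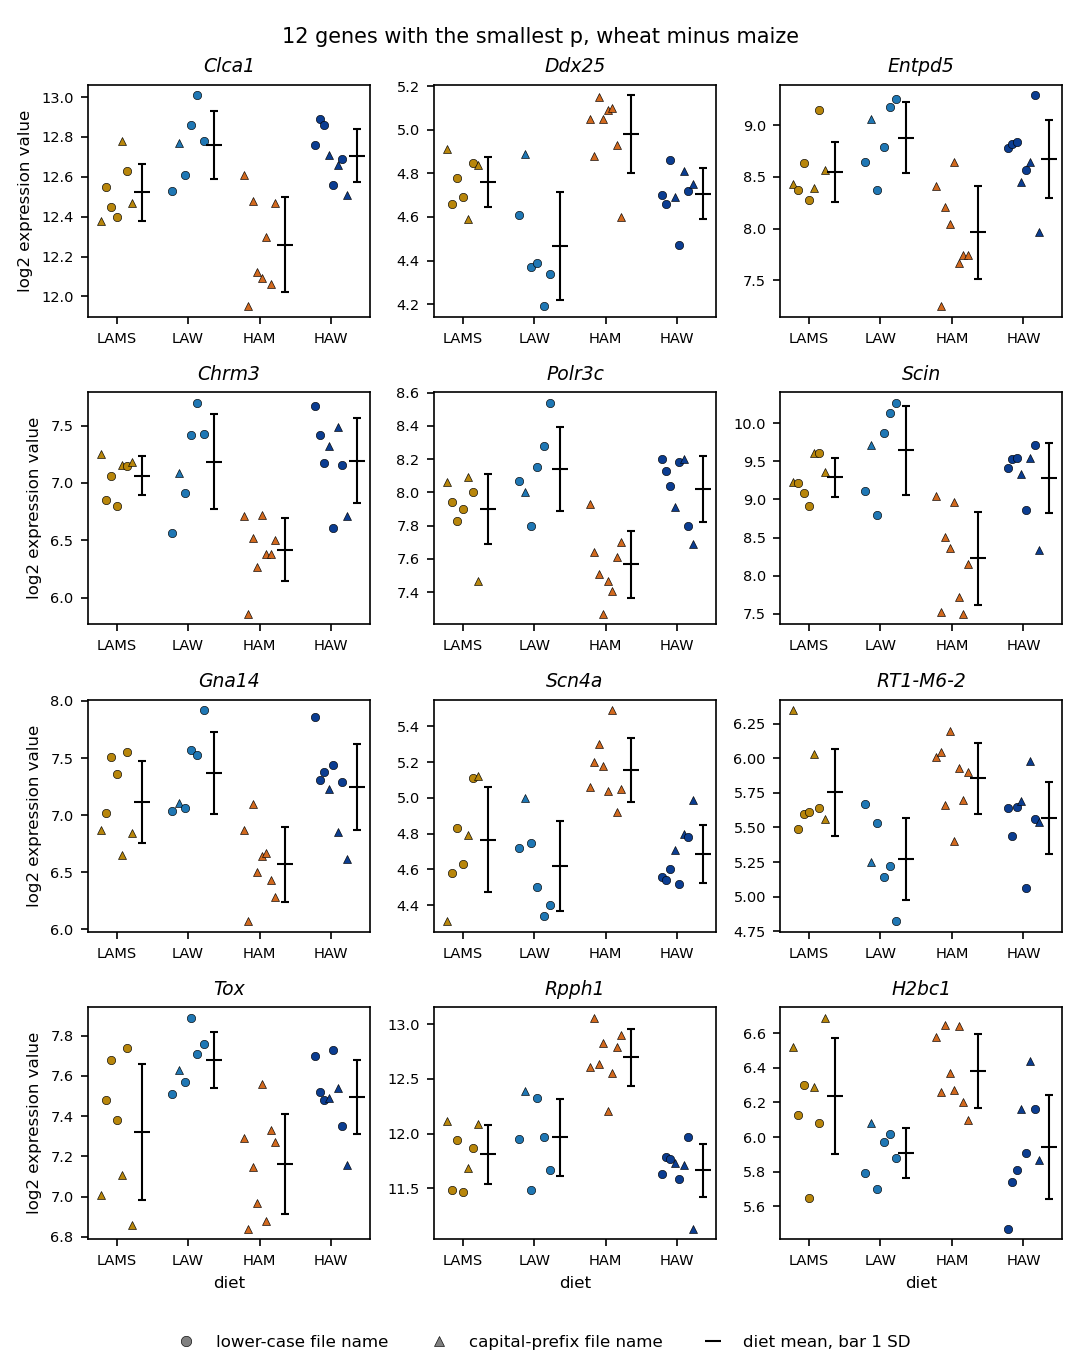
Log2 expression value of the 12 genes with the smallest p in wheat minus maize, by diet, for the 29 arrays. Points are arrays (circles lower-case, triangles capital-prefix file names), bars the diet mean and 1 SD; the 7 higher genes, such as Clca1 with all 14 wheat arrays above the maize median of 12.45, have their lowest value on a HAM array, and wheat and maize overlap in every panel.

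The average combined 2 pairs that differed in size. In LAW minus LAMS, 0 genes passed (0% of 10934), with 192 at an unadjusted p under 0.05. In HAW minus HAM, 1458 genes changed: 1196 rose (10.9%) and 262 fell (2.40%). The median absolute difference of a gene was 0.078 in the low-amylose pair and 0.175 in the high-amylose pair. The pairs share no array. Across genes, which are not independent replicates, the differences of the 2 pairs correlated with r = -0.089, and 51.1% of genes had the same sign in both. Of the 1458 genes that changed in HAW minus HAM, 786 had the same sign in LAW minus LAMS, and 5 of them had an unadjusted p under 0.05 there, against 12 with the opposite sign. The margin of a gene's 95% confidence interval was 0.27 in the median in the low-amylose pair and 0.24 in the high-amylose pair. Differences smaller than that were mostly not detectable in either pair.

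The HAW minus HAM calls moved with the array measures. Blocking on the name style left 808 genes (487 rose and 321 fell), of which 319 were among the 1458. The lymphoid level as a covariate left 411 (295 rose and 116 fell), and both together left 40. The array spread as a covariate left 23. Within the capital-prefix style alone (3 HAW and 8 HAM arrays) 7 passed. Without HAW replicate 8 the count was 3141.

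**Figure D3:**
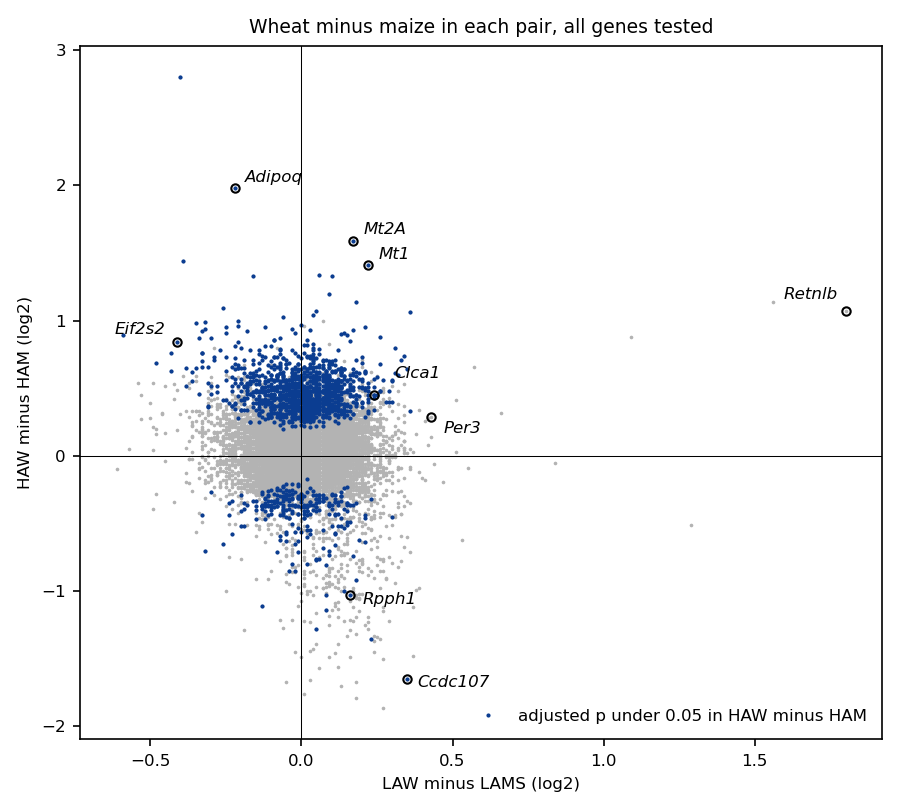
Each point is a gene, placed by its LAW minus LAMS difference (horizontal, log2) and its HAW minus HAM difference (vertical, log2), for 10934 genes; dark points had an adjusted p under 0.05 in HAW minus HAM, and circled genes are named in the text. The cloud is taller than it is wide, with median absolute differences of 0.175 up the page and 0.078 across it, and Retnlb is the gene farthest to the right, at 1.80.

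The difference between the pairs was tested as a grain by amylose interaction (high-amylose minus low-amylose). In it 3 genes passed, 0.0274% of those tested. Eif2s2, a subunit of the initiation factor that brings the first transfer RNA to the ribosome, was at 7.68 to 8.57 in HAM (median 7.90) and 8.61 to 9.23 in HAW (median 8.86), with no overlap. In LAMS it was at 8.73 to 9.27 and in LAW at 8.32 to 8.80, in the opposite order. Its interaction was 1.24 ± 0.20 (limma, adjusted p = 0.00182). Rpph1, a small noncoding RNA gene whose entry in RefSeq's rat table has the type RNase MRP RNA and the older name Rmrp, gave -1.19 ± 0.22 (adjusted p = 0.0139). Its levels were 12.21 to 13.06 in HAM and 11.13 to 11.97 in HAW, again with no overlap, and the low-amylose pair differed by 0.16 ± 0.16. Ccdc107, a coiled-coil protein gene, gave -2.0 ± 0.38 (adjusted p = 0.0139), from 0.35 ± 0.28 in the low-amylose pair and -1.65 ± 0.25 in the high-amylose pair. Each of the 3 passed with the name style as a block too (adjusted p 0.00270, 0.00594 and 0.00618). The next 5 genes by p, Lsm4, Rdh14, Slc25a23, Ptn and H3f3b, had adjusted p between 0.0751 and 0.0873. All 5 passed with the name style as a block, between 0.00808 and 0.0398.

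Genes of iron, zinc and copper handling made up the first group. Of 26 tested, 12 were higher in wheat and 0 lower at an unadjusted p under 0.05, where 12.5% and 3.96% of all genes were; none passed the adjustment. The median difference of the 26 was 0.14, beside 0.04 over all genes, and 22 were above 0, as were 6672 of all 10934 genes. By pair the median was 0.01 in LAW minus LAMS and 0.28 in HAW minus HAM. In HAW minus HAM 10 rose and 1 fell, beside 10.9% and 2.40% of all genes. There 6 rose with the name style as a block, and 6 with the lymphoid level as a covariate. Of all 10934 genes 487 and 295 rose in these 2 models. With name style and lymphoid level in the model the list's median was 0.04, beside -0.01 over all genes.

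The metallothioneins Mt1 and Mt2A, small proteins that bind zinc and copper and whose genes are switched on by zinc through the factor MTF1, led this list. Mt1 was at 9.78 to 12.22 in wheat (median 11.19) and 9.16 to 11.57 in maize (median 10.43). By diet its 8 HAW values were 10.77, 11.01, 11.17, 11.21, 11.37, 11.59, 12.08 and 12.22, and its 8 HAM values were 9.16, 9.17, 9.72, 9.78, 9.94, 10.66, 10.83 and 10.87. HAW and HAM thus overlapped in 1 HAW and 2 HAM arrays. The low-amylose diets spanned the same levels as each other, 9.78 to 11.36 in LAW and 10.08 to 11.57 in LAMS. The average difference was 0.82 ± 0.21 (limma, unadjusted p = 3.51e-04, adjusted p = 0.195), from 0.22 ± 0.31 in the low-amylose pair and 1.41 ± 0.28 in the high-amylose pair (adjusted p = 0.00509).

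Mt2A had a like pattern, with 9.42 to 11.72 in HAW (median 10.10), 7.57 to 9.83 in HAM (median 8.57), 8.31 to 10.04 in LAW and 8.30 to 10.80 in LAMS. Its average difference was 0.88 ± 0.28 (adjusted p = 0.198), and its HAW minus HAM difference 1.59 ± 0.38 (adjusted p = 0.0110). Both metallothioneins kept most of their size or gained in it under the other models. Mt2A itself differed between the name styles within diets (capital minus lower 1.00, limma adjusted p = 0.0111). For Mt1 that style difference was 0.43 (limma adjusted p = 0.167). The lymphoid level alone as a covariate gave 0.67 for Mt1 and 0.70 for Mt2A. With the name style as a block the averages were 1.01 and 1.31, and with the lymphoid level added 0.80 (unadjusted p = 1.68e-04) and 1.08 (unadjusted p = 1.49e-04). Within the capital-prefix style, where LAW is 1 array, they were 1.05 and 1.26. Within the lower-case style, where LAMS is the only maize diet, they were 0.59 and 0.85. The interaction did not pass for either (1.19 ± 0.42, adjusted p = 0.199, and 1.42 ± 0.57, adjusted p = 0.250). A further probe set of each gene gave 0.85 for Mt1 and 0.86 for Mt2A; since metallothionein genes are near-identical in part, signal from a related copy cannot be told apart. Levels in the control diet were 10.91 ± 0.65 for Mt1 and 9.68 ± 0.95 for Mt2A (n = 5), and in HAMSB 10.14 ± 0.61 and 8.72 ± 0.72 (n = 9).

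The promoters of both are shown because the genes moved together and share a known control element. The 250 bases before the start site of each, from RefSeq (GRCr8), lie on the minus strand of chromosome 19 at chr19:10832976-10833225 for Mt1 and chr19:10838709-10838958 for Mt2A. Capitals mark matches to the core of the metal response element, TGCACNC or TGCGCNC, on either strand.
Mt1: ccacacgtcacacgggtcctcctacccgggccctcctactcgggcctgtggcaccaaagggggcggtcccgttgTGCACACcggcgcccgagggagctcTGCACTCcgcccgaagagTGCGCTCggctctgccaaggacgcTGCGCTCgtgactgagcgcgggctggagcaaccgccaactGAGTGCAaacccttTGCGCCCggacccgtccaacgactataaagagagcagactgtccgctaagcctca
Mt2A: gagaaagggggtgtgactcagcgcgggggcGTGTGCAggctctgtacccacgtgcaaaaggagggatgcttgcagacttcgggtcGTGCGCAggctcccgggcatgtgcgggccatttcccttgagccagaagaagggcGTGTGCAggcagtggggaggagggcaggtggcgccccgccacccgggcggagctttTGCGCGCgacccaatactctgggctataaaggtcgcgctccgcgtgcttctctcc
The Mt1 window held 6 matches and the Mt2A window 4. Of 33469 promoter windows of this length in the same table, 20.6% held 1 or more, 0.266% held 4 or more and 0.0269% held 6 or more. A match describes the letters only and does not show that a factor bound there in these rats.

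Among the transporters of the list, Slc39a14, a zinc and iron importer, was at 7.35 to 8.15 in wheat (median 7.77) and 6.62 to 7.96 in maize (median 7.40). Its difference was 0.34 ± 0.09 on average and 0.66 in HAW minus HAM (adjusted p = 0.00486). Atp7b, a copper pump, differed by 0.36 ± 0.11, with 7 of 14 wheat arrays above every maize array. Heph, the copper-bearing oxidase that readies iron for export from enterocytes, differed by 0.39 ± 0.14, and Slc40a1, the iron exporter itself, by 0.29. In HAW minus HAM Heph rose by 0.76 and Slc40a1 by 0.53, while Hamp, the gene of the iron hormone hepcidin, fell by 0.32. With name style and lymphoid level in the model Slc39a14 was at 0.16, Atp7b at 0.13 and Heph at 0.13.

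The largest average differences of all genes tested were those of Retnlb and Retnla, named here after their values were seen. Retnlb encodes resistin-like molecule beta, which goblet cells release into the lumen and which acts on gut bacteria; Retnla encodes a related secreted protein. Retnlb ran from 7.49 to 10.45 in LAW (median 9.21) and from 6.02 to 8.83 in LAMS (median 7.65). It ran from 5.31 to 9.45 in HAW (median 7.04) and from 4.52 to 8.34 in HAM (median 6.01). The spread within each diet was wide and the diets overlapped, yet both pairs leaned the same way: 1.80 ± 0.66 in the low-amylose pair (unadjusted p = 0.00935) and 1.07 ± 0.59 in the high-amylose pair (adjusted p = 0.201). The average was 1.43 ± 0.44 (limma, unadjusted p = 0.00244, adjusted p = 0.195), and 5 of 14 wheat arrays lay above every maize array. It was 1.74 with the name style as a block, and with the lymphoid level added it was 1.58. Within the capital-prefix style, where LAW is 1 array, it was 2.14. Within the lower-case style, where LAMS is the only maize diet, it was 0.72. Retnla averaged 1.35 ± 0.44, with 1.56 and 1.14 in the 2 pairs; the genes are similar in sequence, and signal shared between them cannot be told apart. Control rats had a Retnlb mean of 9.18 ± 1.51 and HAMSB rats 9.23 ± 1.11, levels like those of LAW. Fam111a, next in size among the average differences after these and Car3 and without a group here, was 0.98 ± 0.42 higher (adjusted p = 0.252) and ranged from 4.47 to 8.17 over the 29 arrays. The style block put it at 0.64 (unadjusted p = 0.151), and the lymphoid level added to it at 0.47.

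**Figure D4:**
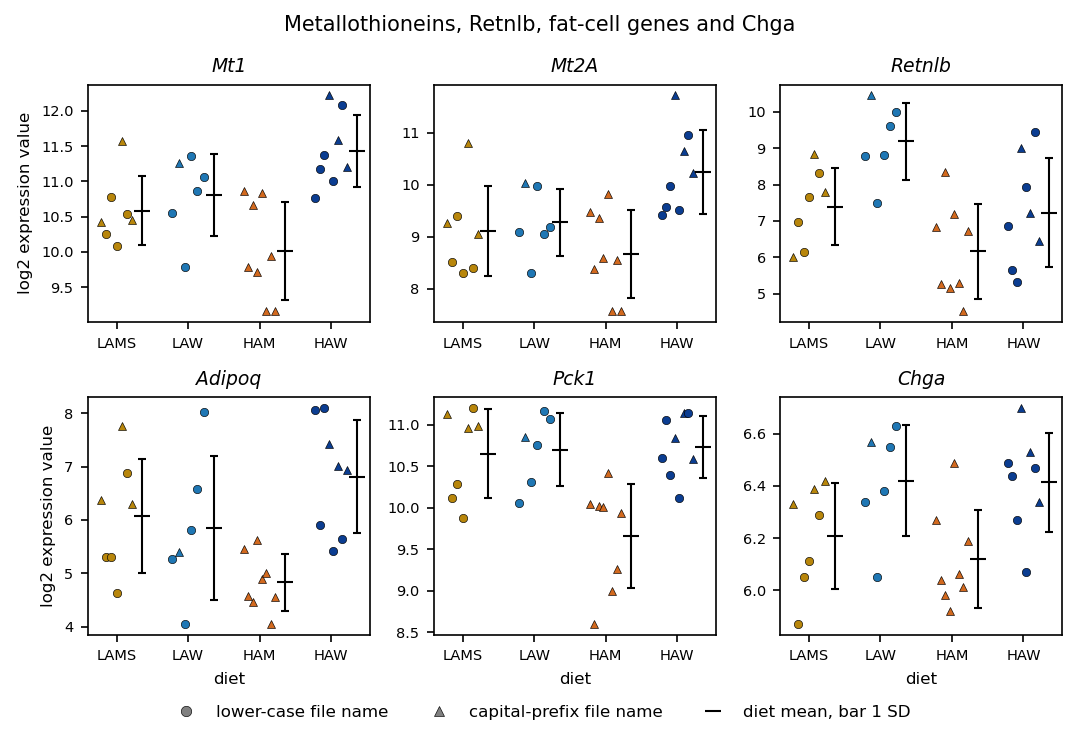
Log2 expression values of Mt1, Mt2A, Retnlb, Adipoq, Pck1 and Chga by diet for the 29 arrays. Points are arrays (circles lower-case, triangles capital-prefix file names) and bars the diet mean and 1 SD; Mt1, Mt2A and Adipoq are highest in HAW and lowest in HAM with the low-amylose diets between them, while the highest Retnlb mean is that of LAW, at 9.19.

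Of 21 tested goblet cell and mucus genes, 5 were higher and 0 lower at an unadjusted p under 0.05, beside 12.5% and 3.96% of all genes. Their median was 0.14. In HAW minus HAM 5 rose and 0 fell, beside 10.9% and 2.40% of all genes. There 4 rose with the name style as a block and 1 with the lymphoid level as a covariate. Of all 10934 genes 487 and 295 rose in these 2 models. Beside Clca1 and Retnlb the 5 higher genes held Sytl2, a vesicle-docking protein, at 0.50 ± 0.13, and Creb3l4, a membrane-bound transcription factor, at 0.36 ± 0.14. Sytl2 also differed between the name styles (capital minus lower -0.45, adjusted p = 0.0204), and with style and lymphoid level in the model it was at 0.09 and Creb3l4 at 0.10. This list and the lymphoid level were opposed within diets (r = -0.80 over the 29 arrays, a description), and the list's median with both terms was 0.04.

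Glycosyltransferases, which build the sugar chains of mucins and glycolipids, held 24 tested genes, 8 higher and 0 lower at an unadjusted p under 0.05. The shares over all genes were 12.5% and 3.96%. Their median was 0.19, from -0.01 in LAW minus LAMS and 0.43 in HAW minus HAM. In HAW minus HAM 13 rose and 1 fell, beside 10.9% and 2.40% of all genes. With the name style as a block 6 rose and 2 fell in HAW minus HAM, and with the lymphoid level as a covariate 2 rose. Of all 10934 genes 487 rose and 321 fell with that block, and 295 rose with that covariate. Galnt3, which starts O-linked chains, was at 6.77 to 8.35 in wheat (median 7.76) and 6.03 to 8.13 in maize (median 7.41), a difference of 0.39 ± 0.14. Galnt7 (0.36) and Galnt4 (0.33), of the same family, and Fut1 (0.31) and Fut2 (0.26), which add fucose, stood in the same direction. B4galt1, a galactosyltransferase, was the member that fell in HAW minus HAM, by 0.68. With name style and lymphoid level in the model the list's median was 0.02 and 1 of 24 was higher at an unadjusted p under 0.05.

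Ion and water transport covers the channels and exchangers by which colonic epithelium secretes chloride and absorbs salt. Of 28 tested genes 9 were higher and 0 lower at an unadjusted p under 0.05, beside 12.5% and 3.96% of all genes. The median was 0.21. In HAW minus HAM 11 rose and 0 fell, beside 10.9% and 2.40% of all genes. There 3 rose with the name style as a block and 2 with the lymphoid level as a covariate. Of all 10934 genes 487 and 295 rose in these 2 models. Within diets the mean of the 28 ran against the lymphoid level (r = -0.79 over the 29 arrays, a description). Adding name style and lymphoid level to the model gave a median of 0.02, with 1 of 28 higher. Cftr, the chloride channel opened by cyclic nucleotides, averaged 0.39 and rose by 0.70 in the high-amylose pair. Car12, a carbonic anhydrase, averaged 0.33 and rose by 0.73. The guanylin axis, by which a luminal peptide raises cyclic GMP in the epithelium, had the highest median of the 54 lists with at least 5 tested genes, at 0.37 over 7 genes. Its receptor Gucy2c was at 9.04 to 10.31 in wheat (median 10.13) and 8.29 to 10.19 in maize (median 9.82), a difference of 0.39 ± 0.13, and the ligand Guca2b differed by -0.06 ± 0.15. The guanylin median was 0.07 in LAW minus LAMS and 0.55 in HAW minus HAM, and 0.08 with name style and lymphoid level in the model. Over the 29 arrays the within-diet r of its mean with the lymphoid level was -0.83.

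Enzymes and pumps that deal with foreign compounds form the next group. Of 25 tested, 11 were higher and 1 lower at an unadjusted p under 0.05, beside 12.5% and 3.96% of all genes. Their median was 0.23. In HAW minus HAM 10 rose and 1 fell, beside 10.9% and 2.40% of all genes, while the median in LAW minus LAMS was 0.02. With the name style as a block 2 rose in HAW minus HAM, and with the lymphoid level as a covariate also 2. Of all 10934 genes 487 and 295 rose in these 2 models. Akr1b8, an aldo-keto reductase, was at 5.50 to 7.51 in wheat (median 6.55) and 5.13 to 6.92 in maize (median 6.12), a difference of 0.44 ± 0.16. Aldh1a1, a retinal dehydrogenase, averaged 0.52, and Abcg2, an efflux pump, 0.39. Cyp2s1, a cytochrome P450, went the other way, at -0.62 on average and with a fall of 1.11 in the high-amylose pair; with the name style as a block its average was -0.73. Of 6 tested genes of the aryl hydrocarbon receptor group, 4 were higher at an unadjusted p under 0.05: Ahr, Nfe2l2, Nqo1 and Arnt. Of its target genes, Aldh3a1 was at -0.19 and Ahrr, the receptor's repressor, at -0.02, while Cyp1a1 lay under the low-signal floor. Ahr, the receptor, differed by 0.30 ± 0.09 with 6 of 14 wheat arrays above every maize array, and Nqo1, a quinone reductase, by 0.37 ± 0.14. The xenobiotic list's median was 0.01 with name style and lymphoid level in the model, and the receptor group's median was -0.02 within the capital-prefix style.

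Markers of fat cells stood higher in HAW than in HAM and in the average. Of 15 tested, all 15 had a positive average difference, as had 6672 of all 10934 genes. The median of the 15 was 0.29. At an unadjusted p under 0.05, 8 were higher and 0 lower, beside 12.5% and 3.96% of all genes. In HAW minus HAM 9 rose and 0 fell, beside 10.9% and 2.40% of all genes. The median was 0.54 there and 0.03 in LAW minus LAMS. With the name style as a block 9 rose in HAW minus HAM, and with the lymphoid level as a covariate 3 rose. Of all 10934 genes 487 and 295 rose in these 2 models. Adipoq, the gene of the fat hormone adiponectin, was at 5.42 to 8.10 in HAW (median 6.97), 4.05 to 5.63 in HAM (median 4.74), 4.05 to 8.02 in LAW and 4.62 to 7.76 in LAMS. It averaged 0.88 ± 0.36 (adjusted p = 0.235) and rose by 1.98 ± 0.48 in HAW minus HAM (adjusted p = 0.0110), against -0.22 ± 0.53 in the low-amylose pair. Lep, the gene of leptin, averaged 0.48 ± 0.20, and Cidec, a lipid droplet protein, 0.66 ± 0.20. The HAM median of Lep, 4.87, was also near the floor. Car3, a carbonic anhydrase abundant in fat and skeletal muscle and named after its values were seen, had the largest HAW minus HAM difference of all genes, 2.80 ± 0.71 (adjusted p = 0.0132), and -0.40 ± 0.79 in LAW minus LAMS. The lymphoid level as a covariate put its HAW minus HAM difference at 2.12, no longer past the threshold (limma, adjusted p = 0.0510). With name style and lymphoid level in the model the list's median was 0.30, the highest kept by any list described here. The list's mean level ran from 6.00 to 7.26 in LAMS, 5.79 to 6.38 in HAM, 5.92 to 7.39 in LAW and 6.35 to 7.41 in HAW, so HAW and HAM overlapped only at the edge. How much fat tissue each piece of colon carried was not recorded, and its part in these differences was not tested.

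Pck1, on this list because fat cells make glycerol through it, is also expressed by colonic epithelium. It was at 10.05 to 11.16 in wheat (median 10.79) and at 8.60 to 11.20 in maize (median 10.04), and all 14 wheat arrays lay above the maize median. The average difference was 0.56 ± 0.16 and the high-amylose one 1.07 ± 0.22 (adjusted p = 0.00536), against 0.05 ± 0.24 in the low-amylose pair. With the name style as a block the average was 0.68 and with the lymphoid level added 0.42 (unadjusted p = 9.11e-04).

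Lists of lipid and energy genes were not alike. Of 38 tested oxidative phosphorylation genes 1 was higher at an unadjusted p under 0.05 (2.63%, beside 12.5% of all genes). In HAW minus HAM 2 of the 38 rose, beside 10.9% of all genes. Cholesterol synthesis and uptake had 2 of 20 higher in the average (10%), and 0 rose in HAW minus HAM. In fatty acid oxidation and ketogenesis, 6 of 26 tested genes were higher and 0 lower at an unadjusted p under 0.05, beside 12.5% and 3.96% of all genes. The median was 0.14, from -0.04 and 0.33 in the low- and high-amylose pairs. In HAW minus HAM 8 of the 26 rose, beside 10.9% of all genes. The list's mean ran against the lymphoid level within diets (r = -0.81 over the 29 arrays, a description). With the lymphoid level as a covariate 1 rose in HAW minus HAM, where 295 of all 10934 genes did. In the average, name style and lymphoid level together gave a median of 0.03 with 0 higher. Ppara, the receptor that switches these genes on, differed by 0.37 ± 0.12, and Cpt1a, which admits long-chain fatty acids to mitochondria, by 0.33. In fatty acid and triglyceride synthesis 5 of 22 were higher, led by Acsl1, which joins fatty acids to coenzyme A, at 0.55 ± 0.14. The list's median was 0.09. With name style and lymphoid level in the model that median was -0.04, with 2 higher and 1 lower, and Acsl1 was at 0.22. Fabp2, a fatty acid carrier of enterocytes, differed by 0.64 ± 0.23, and by 0.38 with name style and lymphoid level in the model. Its HAM median, 4.80, lay near the low-signal floor of 4.75. In short-chain fatty acid transport and sensing 3 of 14 were higher, beside 12.5% of all genes, with a median of 0.17. This median was 0.02, with 0 higher, once name style and lymphoid level were in the model, and the within-diet r of the list's mean with the lymphoid level was -0.88. Slc16a1, the monocarboxylate transporter that carries butyrate, was at 9.61 to 10.72 in wheat (median 10.44) and 9.25 to 10.64 in maize (median 10.16), a difference of 0.19 ± 0.11 (adjusted p = 0.382) that became 0.00 with name style and lymphoid level in the model. Slc5a8, the sodium-coupled carrier of the same acids, averaged 0.36.

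Hydrogen sulphide is a bacterial product that colonocytes detoxify. Of 11 tested genes for its making and removal 4 were higher and 0 lower at an unadjusted p under 0.05. Over all genes the shares were 12.5% and 3.96%. The list's median was 0.20. In HAW minus HAM 5 rose, with the name style as a block 5, and with the lymphoid level as a covariate 1. Sqor, the mitochondrial enzyme that oxidises sulphide first, was at 9.39 to 10.99 in wheat (median 10.44) and 9.24 to 10.87 in maize (median 10.09). It differed by 0.38 ± 0.13, but a further probe set of the gene gave 0.08. Tst, which transfers its sulphur to cyanide, differed by 0.33, and Cdo1, cysteine dioxygenase, an enzyme also abundant in fat, by 0.72 ± 0.27. The list's mean had a within-diet r of -0.85 with the lymphoid level over the 29 arrays, and its median was 0.05 with name style and lymphoid level in the model.

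Enteroendocrine genes held a member with a small, even difference. Chga, chromogranin A of hormone granules, was at 6.05 to 6.70 in wheat (median 6.45) and 5.87 to 6.49 in maize (median 6.11); 12 of 14 wheat arrays lay above the maize median and 5 above every maize array. The difference was 0.25 ± 0.07 (adjusted p = 0.195), with 0.21 ± 0.11 and 0.29 ± 0.10 in the 2 pairs. The name styles differed for Chga within diets (capital minus lower 0.22, limma adjusted p = 0.03). Its wheat minus maize difference was 0.34 with the name style as a block (limma, unadjusted p = 4.13e-05) and 0.25 with the lymphoid level added. Within the capital-prefix style, where LAW is 1 array, it was 0.29. Within the lower-case style it was also 0.29, but there LAMS is the only maize diet and amylose level is not balanced. Of the 12 tested genes of the list 4 were higher at an unadjusted p under 0.05, beside 12.5% of all genes. Among them was Tph1, which makes serotonin's precursor, at 0.22, and the list's median was 0.17. The list's mean and the lymphoid level had a within-diet r of -0.92, and the median was 0.06 with name style and lymphoid level in the model. Slc6a20a, an imino acid transporter, was another gene that the block did not shrink, at 0.44 ± 0.14 without it and 0.61 with it. Slc6a14, a broad amino acid transporter, did the reverse, at 0.42 ± 0.19 without and 0.03 with the block.

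Clock genes gave 5 of 14 higher and 0 lower at an unadjusted p under 0.05, beside 12.5% and 3.96% of all genes. Their median was 0.16, and -0.02 within the capital-prefix style, where LAW is 1 array. Per3, a repressor of the clock, was at 6.26 to 7.55 in wheat (median 6.87) and 6.04 to 7.10 in maize (median 6.53), and differed by 0.36 ± 0.09, with 0.43 ± 0.14 in the low-amylose pair (unadjusted p = 0.00353) and 0.29 ± 0.13 in the high-amylose pair. Name styles differed for Per3 as well (capital minus lower -0.29, adjusted p = 0.0451), and the block brought it to 0.23.

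DNA repair has been a question asked of resistant starch in the colon. Of 17 tested genes of double-strand break repair 5 were higher and 0 lower at an unadjusted p under 0.05. Over all genes the shares were 12.5% and 3.96%. The median of the 17 was 0.13. This was one of the lists with a higher median in the low-amylose pair (0.16) than in the high-amylose pair (0.08). Xrcc6 (0.36) and Xrcc5 (0.26), which form the Ku clamp on broken ends, and Brca1 (0.20) were among the 5. The block on name style put Xrcc6 at 0.10, Xrcc5 at -0.01, Brca1 at 0.04 and the list's median at -0.01. In mismatch repair 2 of 10 were higher, beside 12.5% of all genes, with a median of 0.07: Mlh3 at 0.34 ± 0.11 and Msh3 at 0.22. Mlh3 was also lower in arrays of the capital-prefix style within diets (-0.42, adjusted p = 0.00356), and the block put it at 0.13 and the list's median at -0.03, with 0 of 10 higher. Base excision and single-strand break repair had 2 of 21 higher (9.52%, below the 12.5% of all genes) and a median of 0.03.

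Markers of the tissue layers below the epithelium follow. All 24 tested fibroblast and matrix genes had a positive average difference, as had 6672 of all 10934 genes. Of the 24, 7 were higher at an unadjusted p under 0.05, beside 12.5% of all genes. Their median was 0.16, from -0.04 and 0.43 in the 2 pairs. Members of a list are not independent, and this list's mean had a within-diet r of -0.68 with the lymphoid level. Pdgfra averaged 0.33 and Col1a2 0.27. Of 6 genes of interstitial and mast cells 3 were higher: Kit, the receptor of the pacemaker cells of gut muscle, at 0.38 ± 0.10, Etv1 at 0.34 and Ano1 at 0.28. Kit differed between the name styles within diets (capital minus lower -0.38, adjusted p = 0.0110). It was at 0.21 with the style as a block, 0.09 with the lymphoid level added and 0.06 within the lower-case style. Smooth muscle had 3 of 21 higher (14.3%, near the 12.5% of all genes) and a median of 0.10, and 2 of 21 rose in HAW minus HAM, where 10.9% of all genes did. Tight junction genes had 2 of 16 higher, the same share as all genes, with Tjp1 at 0.34 ± 0.10 and Ocln at 0.25. Leaving out HAW replicate 8 gave 8 of 16 higher, where 19.6% of all genes were. Absorptive colonocytes had 6 of 27 higher and 1 lower, with a median of 0.15. With name style and lymphoid level in the model the medians were -0.04 for fibroblasts, 0.05 for interstitial and mast cells, -0.04 for smooth muscle, 0.00 for tight junctions and -0.01 for colonocytes.

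Lymphoid genes ran the other way, and none passed. The B cell and germinal centre list had the lowest median of all lists, -0.61 over 14 genes, with 0 of 14 higher or lower at an unadjusted p under 0.05. It came from 0.10 in LAW minus LAMS and -1.35 in HAW minus HAM. T and NK cell genes had a median of -0.41 over 19 and MHC class II presentation -0.20 over 13. Single rats differed by more than the diets did: the B cell list mean ran from 5.74 to 9.30 over the 8 HAM arrays and from 5.73 to 8.98 over the 8 HAW arrays. Cytoplasmic ribosomal protein genes were the list with the most members lower, 9 of 52 (17.3%, beside 3.96% of all genes) and 0 higher. Their median was -0.13. In HAW minus HAM 7 fell, beside 2.40% of all genes. There 4 fell with the name style as a block and 1 with the lymphoid level as a covariate. Of all 10934 genes 321 and 116 fell in these 2 models. Rpl32 averaged -0.25 and Rps27 -0.33. With name style and lymphoid level in the model the ribosomal median was 0.05.

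**Figure D5:**
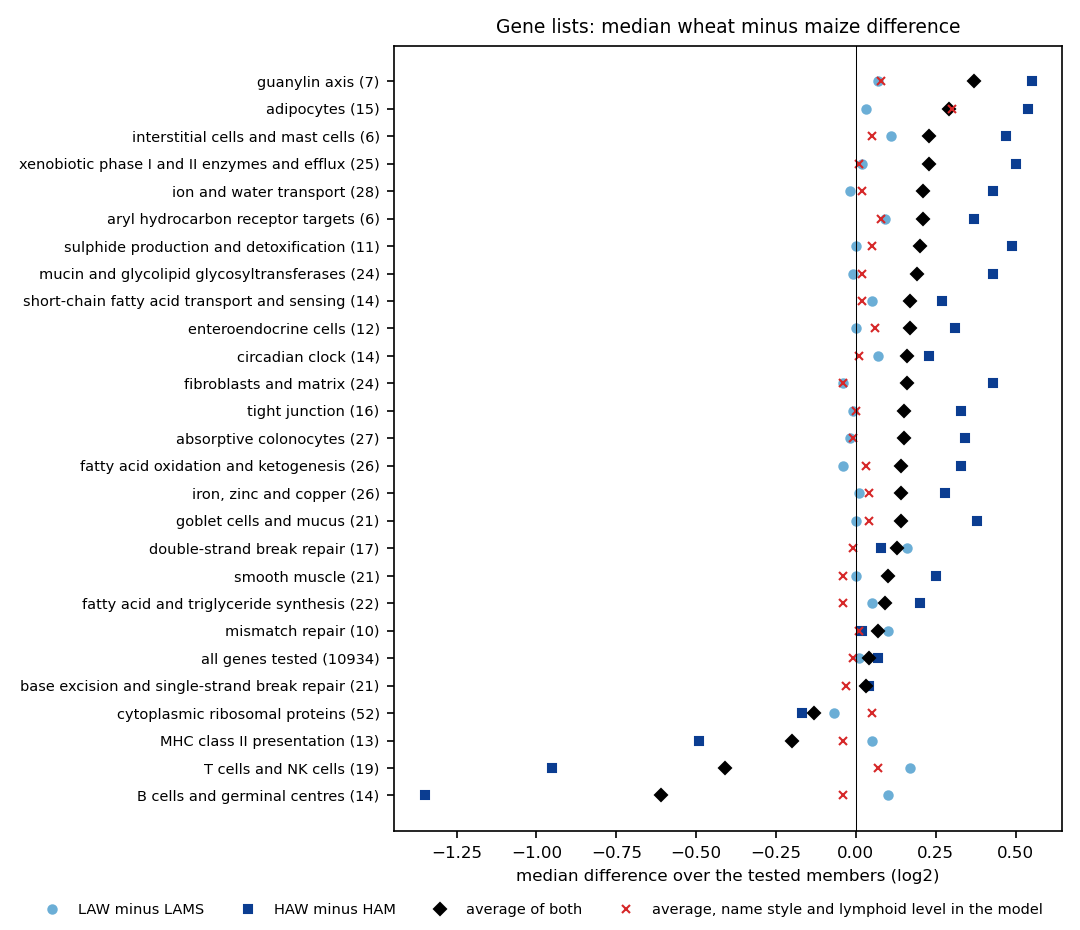
Median difference over the tested members of each gene list (number tested in brackets), on the log2 scale, for LAW minus LAMS (circles), HAW minus HAM (squares), their average (diamonds) and the average with name style and lymphoid level in the model (crosses). For most lists the square lies farther from 0 than the circle, and the adipocyte list keeps its median of 0.29 in the last model, at 0.30, while most others come closer to 0.

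Among the genes fixed to be named in every comparison, Slc16a1 and Slc6a14 are given above. Car1, a carbonic anhydrase of colonocytes, differed by -0.11 ± 0.28 and Guca2b by -0.06 ± 0.15, both smaller than their standard errors. The sign of Guca2b turned under some other models, and Car1 came to 0.00 without HAM replicate 8. Cyp1a1 and Reg3g lay under the low-signal floor, with medians of 3.45 and 3.75 over the arrays, and were not tested. In all, 54 lists had at least 5 tested members and 44 had a median above 0, beside a median of 0.04 over all genes.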

How the data were processed

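The deposited log2 expression values of 29214 probe sets came from RMA, as the submitters' processing notes state; its version is not given in the sources used here. RMA corrects background, forces all arrays to 1 distribution and merges probes, so differences in total RNA are removed and most values are relative. Of the probe sets, 15310 had 1 gene symbol; per symbol the probe set with the highest mean over the 43 arrays was used (14506 symbols). Genes whose median reached the 25th percentile of probe sets with a symbol (4.75) were tested, 10934 in all. A mean per diet was fitted with limma 3.58.1 in R 4.3.3 (lmFit, eBayes), two-sided, with contrasts for the balanced average, each pair and their difference. The script was tested on simulated data. Array measures were compared with 100000 permutations. Figures used matplotlib 3.10.9 in Python 3.11.15.

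The arrays, the 55 gene lists (1356 members, 1219 with a symbol, 13 of them through older names, 1069 distinct genes tested) and the rules were chosen with earlier results of these data known. Named were the 12 genes with the smallest p in the average, the 8 in the interaction, 8 genes fixed for every comparison, of which Muc2 was not analysed and 1 is not reported here, and list members and genes chosen after their values were seen. Lists are described by counts and medians, without a set test. Alternatives varied the filter, probe set rule, prior, array weights, centring, diets fitted, blocks (name style, number range, replicate number), covariates (lymphoid level, array spread) and single arrays; combinations with array weights, the lower-case style alone, and the lists' other models were chosen after seeing the data. Each array comes from its own rat. The number of arrays limits the precision, since arrays have no read depth.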

Additional observations from a re-analysis of the deposited data

Results flagged for a closer look

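Of 224 groups of arrays checked for an array far from the rest, 14 held one, and chance flags about 1 in 20. HAW replicate 8 was the array set apart most often: its interquartile range was 2.68, and it had the lowest HAW value of Rpph1 (11.13), Slc16a1 (9.61), Sytl2 (7.28), Kit (6.33) and Sqor (9.39). Leaving it out raised the genes past the threshold in the average from 0 to 188. In LAMS the values apart were Entpd5 at 9.15 in replicate 6, Polr3c at 7.47 in replicate 7, Guca2b at 9.05 in replicate 5 and Gucy2c at 9.47 in replicate 4. In LAW they were H3f3b at 10.28 and Lep at 6.90 in replicate 6 and Mlh3 at 6.36 in replicate 2, and in HAW also Lsm4 at 8.88 in replicate 5.

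The grain difference depended on the amylose level in 3 genes by the interaction test (limma, adjusted p under 0.05): Eif2s2 at 1.24, Rpph1 at -1.19 and Ccdc107 at -2.0.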

How the results depend on the processing

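Counts of genes past the threshold depended on the model. For the average they were 0 in every setting except all probe sets (1, a probe set without a symbol), the lymphoid level as a covariate (3), array weights (3086), name style as a block with array weights (1426) and leaving out single arrays (0 to 188, the latter without HAW replicate 8). HAW minus HAM gave 2309 with all probe sets, 4742 with array weights, 3293 with weights and name style, 658 with only the 4 diets fitted, 808 with name style, 592 with name style and number range, 411 with the lymphoid level, 40 with name style and lymphoid level, 23 with array spread, 7 within the capital-prefix style, and 539 (without HAW replicate 2) to 3141 (without HAW replicate 8) leaving out single arrays. The interaction gave 9, 1119, 1340, 50 (name style), 33, 5 (lymphoid level), 30 (name style and lymphoid level) and 1 (without LAW replicate 2) to 219 (without HAW replicate 8). LAW minus LAMS gave 0 throughout. The lymphoid level itself ranged from -0.74 to -0.38 leaving out single arrays. The causes were not tested.

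Among the lists with medians in the report, these moved by more than the spread of the list mean between arrays of a diet: with name style and lymphoid level, glycosyltransferases 0.02, guanylin axis 0.08, xenobiotic enzymes 0.01, aryl hydrocarbon receptor group 0.08, ribosomal proteins 0.05 and clock 0.01; within the lower-case style, glycosyltransferases 0.02 and receptor group 0.06; within the capital-prefix style, receptor group -0.02 and clock -0.02.

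Signs turned for Guca2b (0.11 with name style, 0.12 with number range added, 0.07 with array spread, 0.22 with name style and lymphoid level, 0.17 with weights added to these, 0.05 with name style and weights, 0.01 capital-prefix, 0.15 lower-case, -0.14 to 0.02 leaving out single arrays, 0.02 without LAMS replicate 5) and Slc6a14 (-0.03 with name style and lymphoid level, -0.01 with weights added, -0.22 lower-case). Within the lower-case style Rpph1 was at 0.12 and Mlh3 at -0.03. Slc16a1 came to 0.00 with name style and lymphoid level, with or without weights, and Car1 to 0.00 without HAM replicate 8 (-0.27 to 0.00 leaving out single arrays). In HAW minus HAM, name style and lymphoid level gave -0.01 for Sytl2, -0.04 for Per3 and 0.00 for Tjp1, and the capital-prefix style -0.02 for Per3 and -0.23 for Fam111a.

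With the replicate number as a block the counts were 0 for the average, 0 for LAW minus LAMS, 1047 for HAW minus HAM and 3 for the interaction. Deviations of arrays with the same number correlated between -0.79 and 0.63, and 2 of 29 arrays correlated best with their own number, so the numbers do not pair the rats.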
